A study of Mus musculus with 163 samples.

Results

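The antioxidant and glutathione genes described here are 69 of the 21872 protein-coding genes, and of the 55291 genes in all, in a table of single mouse cochlear hair cells. They were chosen by name, as the genes whose symbol starts with Gpx, Gst, Prdx or Txn, together with Sod1, Sod2, Sod3, Cat, Gclc, Gclm, Gss, Gsr, Hmox1, Hmox2, Nqo1, Srxn1 and Nfe2l2. By role they are 4 superoxide dismutases and catalase, 8 glutathione peroxidases, 4 genes of glutathione synthesis and recycling, 23 glutathione transferases, 8 peroxiredoxins and sulfiredoxin, 6 thioredoxins with their reductases and inhibitor, 12 further thioredoxin-fold proteins of the Txndc and Txnl names, and the regulator Nfe2l2 with Nqo1 and the 2 heme oxygenases.

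The study compared hair cells with and without the RNA-binding protein Rbm24 at postnatal day 7, and its title links Rbm24 to the survival of outer hair cells. Outer hair cells (OHCs) amplify sound and inner hair cells (IHCs) pass it on to the auditory nerve. The table held 163 cells in 4 groups, with 43 control OHCs and 38 control IHCs (Ctrl in the figures) and 56 mutant OHCs and 26 mutant IHCs (Exp). Controls had the genotype Atoh1P2A-Tdtomato/+, and mutants Atoh1P2A-Cre/P2A-Tdtomato/+; Rbm24flox/flox. All picked cells were red through Tdtomato made from the Atoh1 locus, which is active in hair cells, and Cre was made from the same locus. Cre and a modified second Atoh1 allele thus differ between the genotypes together with Rbm24, and their shares in any difference cannot be told apart. Cochleae of all groups were digested in a solution that held ascorbate, thiourea and N-acetyl-L-cysteine, which are antioxidants or thiols themselves, and single cells were picked by hand. The sources used here do not say how a cell was assigned to OHCs or IHCs.

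Hydrogen peroxide and lipid peroxides are removed in cells by 2 thiol systems that both draw on NADPH. In one, glutathione made by Gclc, Gclm and Gss feeds the glutathione peroxidases and is recycled by glutathione reductase (Gsr), and glutathione transferases attach it to reactive lipid aldehydes and other electrophiles. In the other, thioredoxin and thioredoxin reductase keep the peroxiredoxins reduced. Many of these genes are under the transcription factor Nrf2 (Nfe2l2), which binds antioxidant response elements in promoters. In the cochlea, OHCs are known to be more easily lost than IHCs after noise or aminoglycoside antibiotics, and oxidative damage is a recognised part of both injuries.

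Levels are in CPM, the standard count scale that sets every library to the same total, and a group's level comes from the pooled counts of all its cells. Mutant libraries were deeper, with median totals of 9.09e+06 and 1.28e+07 counts in control and mutant OHCs and 8.67e+06 and 1.42e+07 counts in control and mutant IHCs, and the totals of all cells ran from 5.47e+06 to 1.81e+07 counts. No label names the animal of a cell, so each group counts as 1 sample, no difference between groups has a replicate check and no test was made. Intervals in parentheses after a log2 ratio are 95% Clopper-Pearson intervals, which cover counting error only and are narrow next to the spread between cells. Reads are not independent molecules, since the libraries had no molecular identifiers. A cell is called positive for a gene at 10 CPM or more.

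The labels held up against known markers with 1 exception. Rbm24 was at 78.8 to 917 CPM in the control OHCs and 202 to 921 CPM in the control IHCs, and at most 2.43 and 15.6 CPM in the mutant OHCs and mutant IHCs. In 1 of 56 mutant OHCs the summed inner hair cell markers exceeded the outer ones, and in none of the other cells did the markers go against the label. The pooled level of 11 supporting cell markers reached 50 CPM in 5 control OHCs, 2 mutant OHCs, 10 control IHCs and no mutant IHC. The median summed level of 8 neuronal markers, among them neurofilament genes that hair cells also make, was 335 and 832 CPM in control and mutant OHCs and 723 and 1420.0 CPM in control and mutant IHCs. The median of 5 glial markers was 104 and 309 CPM in OHCs and 134 and 441 CPM in IHCs, nearly all of it Cnp. For mesenchymal, erythroid, immune and endothelial lists the group medians were at most 0.257 CPM. Y-linked genes were on and Xist off in 32 of 43 control OHCs but 16 of 56 mutant OHCs, and in 26 of 38 control IHCs but 7 of 26 mutant IHCs. The sexes are therefore mixed differently in the genotypes, and for many genes below the ratios from these Y-positive cells and from the Xist-positive cells follow the pooled one, in that order. The signs of these ratios differed between the sexes for 15 of 52 genes in OHCs and 14 of 54 in IHCs. A split at 40 CPM of the gene Gm15772 gave nearly the same cell numbers in mutants. It left 16 low and 40 high mutant OHCs, beside 16 Y-positive and 37 Xist-positive ones. Among mutant IHCs both splits gave 7 and 19 cells. In controls the splits differed more, with 25 low and 18 high OHCs beside 32 Y-positive and 10 Xist-positive ones. Among control IHCs they gave 23 and 15 cells by Gm15772, and 26 and 12 by sex. In mutants sex thus cannot be told apart from Gm15772 level by these numbers. It cannot be told apart from animal in any group, as no label names the animal. The part of depth, sex mix and other cells' RNA in the differences below was not tested beyond these values.

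Promoters of 3 genes are printed because all hold the letters of the Nrf2 element while their levels differed between genotypes in different ways. RefSeq (GRCm38.p6) gave the 250 bases before to the 50 after a start for 59 of the 69 genes, and each window was searched on both strands for the antioxidant response element core in its forms TGACNNNGC and TGAGNNNGC. Of the 59 genes 22 (37.3%) held at least 1 of them, against 30.8% of 27025 genes with a window, and a match describes letters and not a bound site. The 250 bases before the start are given for Gclm (chr3:122245307-122245556), Gstm5 (chr3:107895604-107895853) and Srxn1 (chr2:152105274-152105523), all on the plus strand, with the matches in capitals.
Gclm: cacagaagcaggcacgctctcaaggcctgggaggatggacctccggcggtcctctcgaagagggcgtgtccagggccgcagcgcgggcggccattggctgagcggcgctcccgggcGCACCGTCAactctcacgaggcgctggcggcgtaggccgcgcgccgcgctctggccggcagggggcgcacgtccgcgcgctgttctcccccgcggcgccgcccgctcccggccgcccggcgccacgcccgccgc
Gstm5: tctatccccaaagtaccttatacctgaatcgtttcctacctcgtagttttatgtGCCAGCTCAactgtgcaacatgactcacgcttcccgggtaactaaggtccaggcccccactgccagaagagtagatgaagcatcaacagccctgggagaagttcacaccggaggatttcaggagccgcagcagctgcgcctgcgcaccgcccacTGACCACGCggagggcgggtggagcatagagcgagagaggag
Srxn1: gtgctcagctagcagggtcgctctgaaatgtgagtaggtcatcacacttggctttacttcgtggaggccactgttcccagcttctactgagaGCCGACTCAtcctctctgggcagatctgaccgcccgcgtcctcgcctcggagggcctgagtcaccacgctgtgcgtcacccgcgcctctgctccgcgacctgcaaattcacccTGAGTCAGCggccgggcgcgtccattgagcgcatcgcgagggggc
The match in Gclm starts 134 bases before the start, those in Gstm5 at 196 and 42 bases, and those in Srxn1 at 158 and 45 bases. By pooled level, Gclm was lower in mutants of both cell types, Gstm5 was higher in both, and Srxn1 was lower in OHCs and higher in IHCs. For Gclm in OHCs and Srxn1 in IHCs the direction did not hold in every subset or setting, as described below.

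Hair cells of all 4 groups carried a broad set of the genes. Of the 69, 57 reached 1 CPM and 47 reached 10 CPM in at least 1 group, 41 reached 10 CPM in all 4, and 5 had no count in any cell. Per kb of exon, the scale on which genes can be set beside each other, the highest in control OHCs were cytosolic thioredoxin Txn1 at 439.8 CPM per kb, the phospholipid hydroperoxide peroxidase Gpx4 at 363, and the peroxiredoxins Prdx5 at 304 and Prdx2 at 234. They were followed by Prdx1 at 176, Txndc15 at 174, Gpx1 at 124, Prdx3 at 122, Gstm7 at 105 and Gstp1 at 95.4 CPM per kb. In control IHCs the order was headed by Gpx4 at 341, Gpx2 at 276, Txn1 at 274, Prdx2 at 264 and Txndc15 at 262 CPM per kb. The neighbours in these orders overlapped widely from cell to cell. The genes at 10 CPM or more in at least 90% of the cells numbered 20 in control OHCs, 21 in mutant OHCs, 22 in control IHCs and 19 in mutant IHCs, and most others were on in some cells and near 0 in others.

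**Figure D1:**
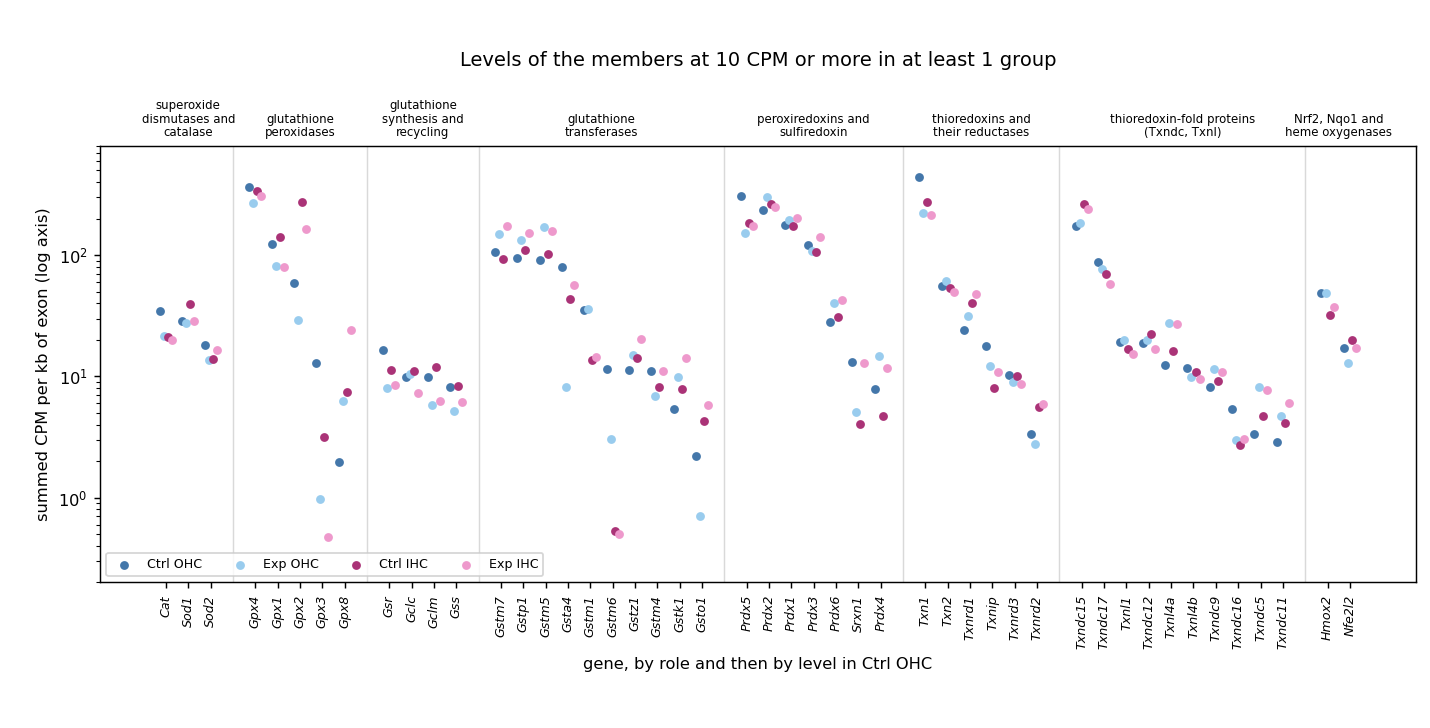
Summed CPM per kb of exon (log axis) of the 47 genes that reached 10 CPM in at least 1 group, with 1 point for each of the 4 groups and genes sorted by role and then by level in control OHCs. Txn1 at 439.8 and Gpx4 at 363 CPM per kb head the control OHCs, while the points of Gsta4, Gpx2, Gpx3 and Gstm6 are spread widely between groups.

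Summed over all 69 genes, the level was close in the 4 groups, at 7016, 6615, 7634 and 7497 CPM in control OHCs, mutant OHCs, control IHCs and mutant IHCs. Parts of the glutathione system went in opposite directions between genotypes. The glutathione peroxidases summed to 1020.3 CPM in control OHCs and 685 in mutant OHCs (log2 ratio -0.57), and to 1696 CPM in control IHCs and 1195 in mutant IHCs (-0.50). Glutathione synthesis and recycling summed to 193 and 129 CPM in control and mutant OHCs (-0.58) and to 196 and 126 CPM in control and mutant IHCs (-0.64). The glutathione transferases were higher in mutants, at 706 and 848 CPM in control and mutant OHCs (0.27) and 642 and 977 CPM in control and mutant IHCs (0.60). The peroxiredoxins had the highest summed CPM of the roles, without scaling by exon length. Their sum moved least in OHCs, from 2268 to 2244 CPM (-0.01). The ranges of single cells overlapped between groups in every role, and such sums follow their highest genes.

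**Figure D2:**
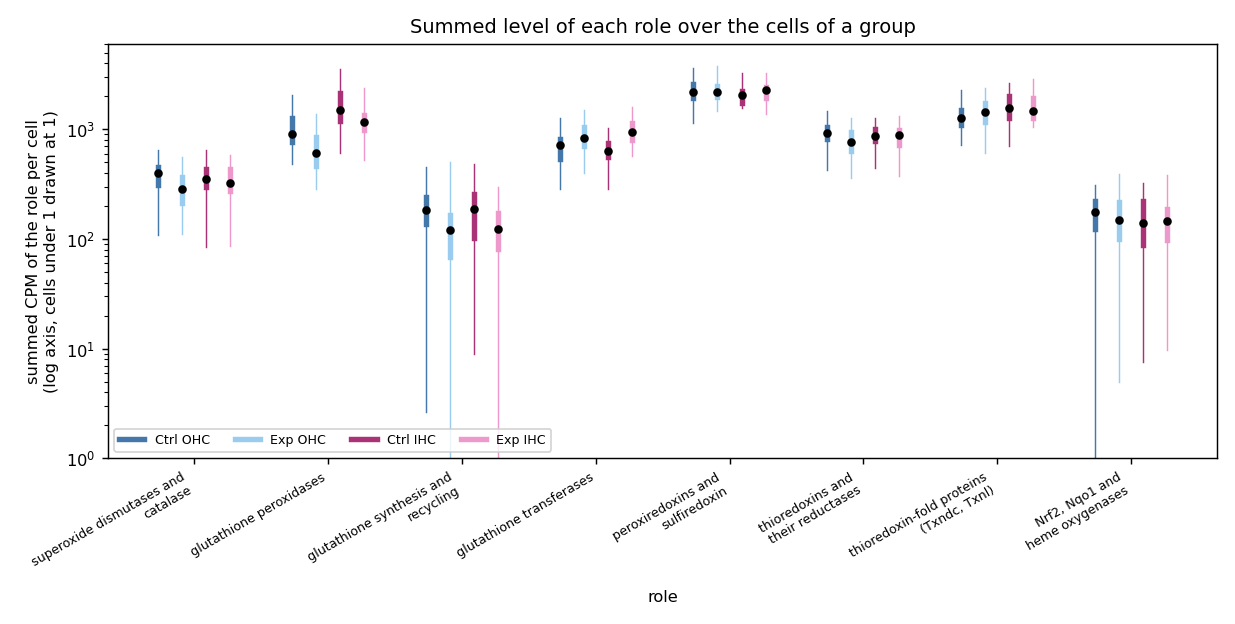
Summed CPM of each role per cell (log axis), with the median as a black point, the quartiles as a thick bar and the lowest and highest cell as a thin line, for the 4 groups. The median of the glutathione peroxidases lies at 899.7 and 606 CPM in control and mutant OHCs and at 1496 and 1169 CPM in control and mutant IHCs, and that of the glutathione transferases at 715 and 826 and at 640.4 and 949.7 CPM.

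Between mutant and control OHCs Gsta4, the transferase that conjugates the lipid aldehyde hydroxynonenal, was 9.76-fold lower in the mutants. Of the 52 genes that averaged at least 1 CPM over the compared groups, 25 lay above and 27 below a log2 ratio of 0, and 5 were higher and 8 lower by at least 2-fold. Among all genes past the same filter 18.4% were higher and 13.1% lower by that much (16.9% and 12.1% of protein-coding genes). The set's shares, 9.62% and 15.4%, were lower than and near these. The median log2 ratio was -0.11 for the set and 0.06 for all genes. With 10 CPM or more in the higher group, Txndc5 and Txnl4a were higher by at least 2-fold, and Gpx3, Gsta4, Gstm6, Srxn1, Gsr and Gpx2 lower. The other 5 past 2-fold were at lower levels, with Gsta3, Gpx8 and Hmox1 higher and Gsto1 and Nqo1 lower. Prdx5 and Txn1 (-0.98) lay just inside the 2-fold limit and Gpx2 (-1.01) just past it.

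Between mutant and control IHCs fewer of the genes passed 2-fold than between mutant and control OHCs. Of 54 genes past the filter 29 lay above and 25 below 0, and 6 were higher and 2 lower by at least 2-fold, against 18.8% higher and 11.7% lower among all genes (16.9% and 10.5% of protein-coding genes). The set's shares, 11.1% and 3.70%, were both below these. With the median of cells in place of sums, 1 was higher and 5 lower. The median log2 ratio was 0.08 for the set and 0.11 for all genes. With 10 CPM or more in the higher group, Gpx8, Srxn1 and Prdx4 were higher by at least 2-fold and no gene was lower. The other 5 past 2-fold were at lower levels, with Gpx7, Gsta3 and Sod3 higher and Gpx3 and Gstm2 lower.

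Between control OHCs and control IHCs, 8 of 54 genes were higher and 5 lower in OHCs by at least 2-fold, against 15.3% and 13.4% of all genes (14.4% and 12% of protein-coding genes), with medians of 0.02 for the set and 0.04 for all genes. At 10 CPM or more in the higher group, Gstm6, Gpx3, Srxn1, Gstm1, Txnip and Txndc16 were higher in OHCs and Gpx2 was higher in IHCs. In 51 genes past the filter in both genotype comparisons, 36 (70.6%) had the same sign in OHCs and IHCs, against 64.6% of all genes. The genotype log2 ratio was at least 1 higher in OHCs than in IHCs for 3 of the 51 and at least 1 lower for 8, against 13.9% and 15.6% of all genes.

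**Figure D3:**
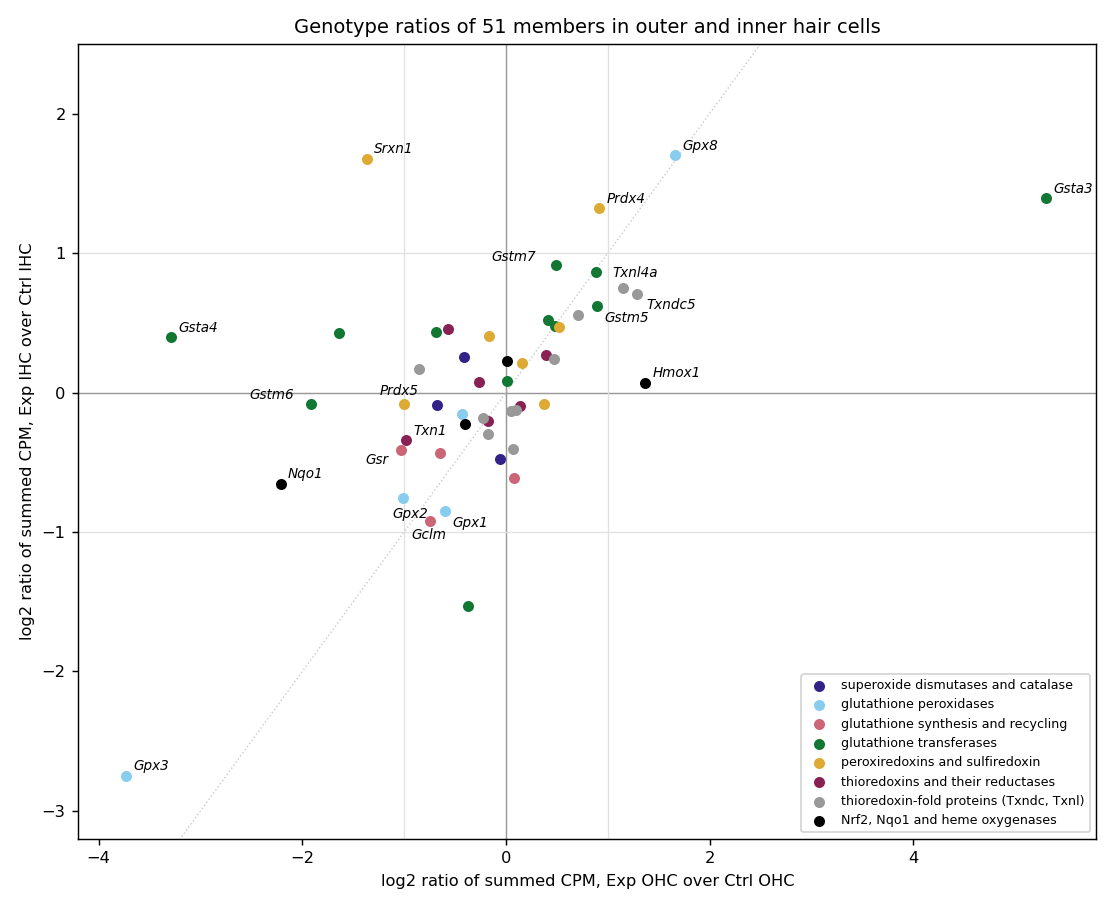
Log2 ratio of summed CPM, mutant over control, in OHCs (horizontal) and IHCs (vertical) for the 51 genes past the filter in both comparisons, coloured by role, with grey lines at 0 and at 2-fold and a dotted line of equal ratios. Gsta4 (-3.29 and 0.40) and Srxn1 (-1.36 and 1.68) lie far from the line of equal ratios, and Gpx3 (-3.73 and -2.75) lies low in both.

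Superoxide dismutases and catalase stayed within 2-fold between genotypes, apart from Sod3, which was seen in single cells. Sod1, the cytosolic copper-zinc enzyme, stood at 114, 109.8, 158 and 114 CPM in control OHCs, mutant OHCs, control IHCs and mutant IHCs, with a genotype log2 ratio of -0.05 (-0.07 to -0.04) in OHCs and -0.48 (-0.50 to -0.46) in IHCs. Its sign differed between Y-positive and Xist-positive cells, at 0.51 and -0.60 in OHCs and 0.22 and -1.09 in IHCs. Between cells low and high in Gm15772 it differed likewise, at 0.53 and -0.48 in OHCs and 0.26 and -1.04 in IHCs. Sod2, the mitochondrial manganese enzyme, stood at 183, 137, 139 and 166 CPM, with ratios of -0.41 and 0.25. Cat, the peroxisomal catalase, was at 90.6, 56.7, 55.2 and 51.8 CPM and was positive in 30 of 43 control OHCs and 39 of 56 mutant OHCs, where its ratio was -0.68 (-0.70 to -0.66). The secreted Sod3 was positive in at most 1 cell of each group and had no count in control IHCs.

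Gpx1 and Gpx4, the widely expressed glutathione peroxidases, were lower in mutants of both cell types. Gpx1, a selenoenzyme of cytosol and mitochondria, had a lowest, median and highest cell of 40.6, 161 and 597 CPM in control OHCs and 0, 116 and 368 in mutant OHCs, and 83.6, 195 and 462 in control IHCs and 41.3, 106 and 262 in mutant IHCs. The medians were lower in mutants while the ranges overlapped, and the log2 ratios were -0.60 (-0.61 to -0.59) in OHCs and -0.85 (-0.86 to -0.83) in IHCs. They were negative within both sexes, at -0.62 in Y-positive and -0.81 in Xist-positive cells in OHCs, and -0.99 in Y-positive and -0.96 in Xist-positive cells in IHCs. Gpx4, which repairs peroxidised membrane lipids and holds back ferroptosis, stood at 626, 466, 587 and 527 CPM and was positive in all 163 cells. Its log2 ratios were -0.43 in OHCs and -0.16 in IHCs. Of the distinct stretches of 50 bases in Gpx4 transcripts 51.4% also occur in transcripts of other genes, above all its pseudogene Gpx4-ps2, so its level depends on how shared reads were counted.

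Gpx2, known mainly from the gut lining, was much higher in IHCs than in OHCs. Its lowest, median and highest cell were 0, 113 and 1053 CPM in control OHCs and 0.235, 640.1 and 2725 in control IHCs, and it was positive in 30 of 43 and 37 of 38 of these cells. The summed level was 4.71-fold lower in OHCs, a log2 ratio of -2.24 (-2.25 to -2.22), and the difference had the same sign in both sexes (-2.44 and -1.57). In the mutants the cells ran through 0, 18.1 and 788 CPM in OHCs and 81.8, 498 and 1311 CPM in IHCs. Mutant OHCs were 2.02-fold lower, with a log2 ratio of -1.01, and mutant IHCs 1.69-fold lower, with -0.76 (-0.76 to -0.75). The OHC ratio was -2.94 in Y-positive and -1.38 in Xist-positive cells. It no longer passed 2-fold without the mutant OHC whose markers go against its label (-0.997) or without the cells rich in supporting cell markers (-0.85). Nor did it under 100 CPM of summed supporting cell, glial, mesenchymal and endothelial markers (-0.03). A part of 18.9% of its 50-base stretches is shared, mostly with the pseudogene Gpx2-ps1.

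Gpx3, the secreted plasma form, came from few cells. It was positive in 13 of 43 control OHCs, 2 of 56 mutant OHCs, 7 of 38 control IHCs and 1 of 26 mutant IHCs, with summed levels of 23.5, 1.77, 5.77 and 0.858 CPM. The log2 ratios were -3.73 (-3.81 to -3.64) in OHCs and -2.75 (-2.93 to -2.58) in IHCs, negative in both sexes of each cell type. The highest cell held 24.2%, 49.6%, 20.4% and 99.7% of the counts of its group, so the size of these ratios rests on single cells. Gpx8, an endoplasmic reticulum peroxidase without selenium, went the other way. It was positive in 7 of 38 control IHCs and 11 of 26 mutant IHCs, at 7.80 and 25.4 CPM, 3.26-fold higher in mutants (log2 ratio 1.70, interval 1.64 to 1.77). In OHCs it stood at 2.08 and 6.59 CPM, and its ratio of 1.66 there became 2.83 when the top cell of each group was dropped and 7.99 without the cells rich in supporting cell markers. The IHC ratio was 1.74 and 2.17 in the same settings. Within the sexes the OHC ratio was 2.56 in Y-positive and only 0.24 in Xist-positive cells, and the IHC ratio 1.26 and 2.81. Gpx7 stayed under 2 CPM in every group, Gpx5 had no count and Gpx6 was near 0.

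By pooled level, the enzymes that make and recycle glutathione were mostly lower in mutants. Gclm, the modifier subunit of glutamate-cysteine ligase, had a lowest, median and highest cell of 0, 42.1 and 289 CPM in control OHCs, 0, 15.8 and 175 in mutant OHCs, 0, 75.5 and 317 in control IHCs and 0, 32.7 and 163 in mutant IHCs. It was positive in 33 of 43 and 30 of 56 of the OHCs and 30 of 38 and 15 of 26 of the IHCs, and the log2 ratios were -0.75 (-0.77 to -0.72) in OHCs and -0.92 (-0.95 to -0.89) in IHCs. Within the sexes the OHC ratio was -1.38 in Y-positive and 0.01 in Xist-positive cells, so the lower level in mutant OHCs was not seen among the latter. The IHC ratio of Gclm was -0.22 in Y-positive and -1.68 in Xist-positive cells. Gclc, the catalytic subunit, stood at 37.3, 39.4, 41.7 and 27.3 CPM, with ratios of 0.08 in OHCs (-0.26 and 0.19 within the sexes) and -0.61 in IHCs. Gss, glutathione synthetase, stood at 48.5, 30.9, 49.0 and 36.3 CPM. Its ratios were -0.65 in OHCs (-1.22 and -0.07 within the sexes) and -0.43 in IHCs (-0.27 and -0.47). Among Xist-positive OHCs the ratios of Gclm, Gclc and Gss were thus near 0 or above it.

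Gsr, glutathione reductase, was positive in 29 of 43 control OHCs and 23 of 56 mutant OHCs. Its lowest, median and highest cell were 0, 38.1 and 164 CPM in the former and 0, 0.158 and 145 in the latter, and the summed level was 2.04-fold lower in mutants (log2 ratio -1.03). Within the sexes it was -0.19 in Y-positive and -2.00 in Xist-positive cells, and without the cells rich in supporting cell markers -0.95. In IHCs it was positive in 19 of 38 controls and 10 of 26 mutants, with a ratio of -0.41 (-0.45 to -0.37). Of the 4 genes of this role, 3 were lower in mutant OHCs and all 4 in mutant IHCs, and only Gsr in OHCs passed 2-fold.

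Gsta4 (chr9:78182774-78209349, GRCm38, plus strand) was on in most cells of 3 groups and off in most mutant OHCs. Its lowest, median and highest cell were 0, 75.4 and 310.0 CPM in control OHCs, 0, 0 and 236 in mutant OHCs, 0, 37.1 and 209.6 in control IHCs and 0, 57.6 and 235 in mutant IHCs. It was positive in 36 of 43 control OHCs (83.7%, exact binomial interval 69.3% to 93.2%), 8 of 56 mutant OHCs (14.3%, 6.38% to 26.2%), 28 of 38 control IHCs (73.7%, 56.9% to 86.6%) and 21 of 26 mutant IHCs (80.8%, 60.6% to 93.4%). These intervals treat cells as independent and say nothing of the spread between animals. The 8 positive mutant OHCs reached into the range of the controls.

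The summed levels of Gsta4 were 100.2, 10.3, 54.7 and 71.9 CPM, with log2 ratios of -3.29 (-3.32 to -3.25) between genotypes in OHCs, 0.40 (0.37 to 0.42) in IHCs and 0.87 (0.85 to 0.90) between control OHCs and control IHCs. The genotype ratio in OHCs was -3.52 in Y-positive and -2.77 in Xist-positive cells, -3.85 with the top cell of each group dropped, and -3.27 without the cells at 50 CPM or more of supporting cell markers. It was -0.90 among the 16 control OHCs and 7 mutant OHCs under 100 CPM of summed supporting cell, glial, mesenchymal and endothelial markers. Cnp alone crosses this limit in most cells. In IHCs the ratio was 0.41 and 0.35 in the sexes, 0.35 without top cells and 0.37 without the cells rich in supporting cell markers, but -8.69 under the 100 CPM limit, which left 1 mutant IHC. Across the 43 control OHCs the rank correlation of Gsta4 was 0.74 with Ocm, 0.65 with Ikzf2, 0.51 with Slc26a5 and -0.15 with Insm1. Across the 56 mutant OHCs it was 0.15, 0.19, 0.22 and -0.23 in the same order. There Ocm, Ikzf2, Slc26a5 and Gsta4 are near 0 in many cells. The OHC marker Bcl11b was not included in these correlations. These are descriptions over cells that share a group and their depth. Of the 5 OHC markers, Ocm (-8.06), Slc26a5 (-3.77) and Ikzf2 (-2.12) were themselves lower in mutant OHCs and Insm1 (2.29) and Bcl11b (1.46) higher.

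The expressed genes next to Gsta4 on chromosome 9 had ratios of the same sign in both cell types. Fbxo9 was lower in mutants of both cell types, with log2 ratios of -1.12 in OHCs and -0.88 in IHCs. Ick had -0.44 and -1.21, and the neighbouring transferase gene Gsta1 was at most 0.178 CPM.

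The Gstm cluster on chromosome 3 split into genes that were higher in mutants and genes that were not. Gstm7 had a lowest, median and highest cell of 0, 139 and 479 CPM in control OHCs and 0, 225 and 647 in mutant OHCs, and of 0, 138 and 484 in control IHCs and 0, 239.9 and 669 in mutant IHCs. Gstm5, named after its values were seen, had 0, 90.0 and 596 CPM in control OHCs and 2.40, 232 and 473 in mutant OHCs, and 0, 116 and 317 in control IHCs and 62.8, 197 and 482 in mutant IHCs. The medians of both were higher in the mutants of each cell type while the ranges overlapped. The log2 ratios of Gstm7 were 0.50 (0.48 to 0.51) in OHCs and 0.91 (0.90 to 0.93) in IHCs, and those of Gstm5 0.90 (0.88 to 0.91) and 0.62 (0.61 to 0.64). For Gstm5 the OHC ratio was 0.83 in Y-positive and 1.23 in Xist-positive cells, and the IHC ratio 0.55 and 0.54. Gstp1, the pi class transferase, was likewise higher, at 148, 206, 169 and 235 CPM and with ratios of 0.48 and 0.48, although 51.0% of its 50-base stretches are shared with its neighbour Gstp2.

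Gstm6 was higher in OHCs than in IHCs, though positive in a minority of OHCs, and was lower in the mutant OHCs. It was positive in 17 of 43 control OHCs, 8 of 56 mutant OHCs, 1 of 38 control IHCs and 1 of 26 mutant IHCs, with summed levels of 22.9, 6.08, 1.06 and 1.00 CPM. The log2 ratio was 4.43 (4.28 to 4.58) between control OHCs and control IHCs and -1.91 (-1.96 to -1.86) between mutant and control OHCs. Within the sexes these were 6.39 and 2.25 for the cell types, and -1.23 and -1.78 for the genotypes. In control IHCs 1 cell held 78.6% of its counts, and without the cells rich in supporting cell markers the cell type ratio was 7.12. Gstm1 was also higher in OHCs, at 52.3, 52.6, 20.3 and 21.4 CPM. Its pooled genotype ratios were near 0, at 0.01 in OHCs and 0.08 in IHCs. Within the sexes they were -0.39 in Y-positive and -0.35 in Xist-positive cells in OHCs, and 0.18 and 0.59 in IHCs. Between 8.3% and 28.8% of the 50-base stretches of Gstm1, Gstm2, Gstm3, Gstm5 and Gstm6 occur in transcripts of other genes, so levels within the cluster carry an uncertainty from read sharing. Of all 23 transferases 13 passed the filter in each genotype comparison, with 8 above and 5 below 0 in OHCs and 10 above and 3 below in IHCs.

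**Figure D4:**
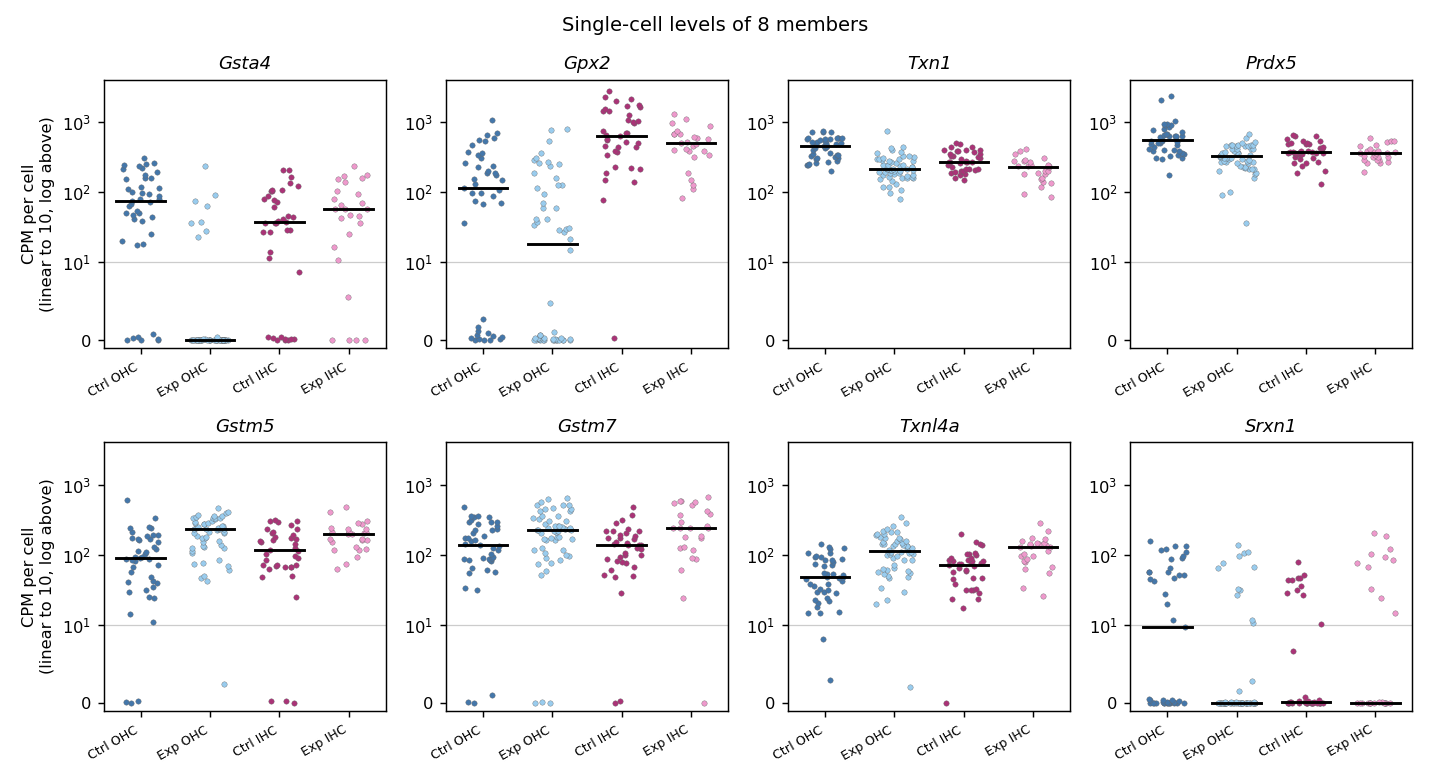
CPM per cell (linear to 10 and log above) of 8 genes in the 4 groups, with each point a cell, black lines the group medians and a grey line at 10 CPM. Gsta4 is at or near 0 in most mutant OHCs (positive in 8 of 56), while Txn1, Prdx5, Gstm5, Gstm7 and Txnl4a are shifted as a whole with overlapping ranges.

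Among the peroxiredoxins, which reduce hydrogen peroxide at high rates, Prdx5 stood out in OHCs. Prdx5, the form found in mitochondria, peroxisomes and cytosol, had a lowest, median and highest cell of 173, 546 and 2337 CPM in control OHCs and 36.1, 323 and 668 in mutant OHCs, and of 131, 369.7 and 662 in control IHCs and 195, 359.7 and 595 in mutant IHCs. Control OHCs were the high group and the other 3 had similar medians. The level was 2.00-fold lower in mutant than in control OHCs (log2 ratios -0.99 and -1.35 within the sexes), and the log2 ratio was -0.08 (-0.09 to -0.07) in IHCs and 0.73 (0.73 to 0.74) between control OHCs and control IHCs. Its exons overlap those of Trmt112 on the other strand, whose ratios were -0.29 and -0.14, and whether the counting used strand is not given in the sources used here.

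The remaining peroxiredoxins differed by less than 2-fold in OHCs. The cytosolic Prdx1 stood at 536, 598, 528 and 612 CPM and Prdx2 at 713, 921, 805 and 761 CPM, with ratios of 0.16 and 0.37 in OHCs and 0.21 and -0.08 in IHCs. The mitochondrial Prdx3 stood at 179.6, 159.8, 157 and 208 CPM, with -0.17 in OHCs (-0.58 and 0.35 within the sexes) and 0.41 in IHCs (-0.12 and 0.96). Prdx6, which works with glutathione and also acts on phospholipids, stood at 135, 194, 149 and 207 CPM, with 0.52 (0.51 to 0.54) in OHCs and 0.47 (0.45 to 0.49) in IHCs. Prdx4, the peroxiredoxin of the endoplasmic reticulum, was positive in 16 of 43 control OHCs and 34 of 56 mutant OHCs, and in 12 of 38 control IHCs and 13 of 26 mutant IHCs. More mutant cells were thus positive in both cell types, and the log2 ratios were 0.92 (0.88 to 0.96) in OHCs and 1.32 (1.26 to 1.38) in IHCs, with 0.89 in Y-positive and 0.89 in Xist-positive cells in OHCs, and 1.59 and 0.92 in IHCs.

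Srxn1, sulfiredoxin, which restores peroxiredoxins that peroxide has inactivated, had ratios of opposite sign in the cell types. It was positive in 21 of 43 control OHCs, 12 of 56 mutant OHCs, 11 of 38 control IHCs and 11 of 26 mutant IHCs, with summed levels of 36.7, 14.3, 11.5 and 36.7 CPM. The highest cells were at 157, 137, 79.9 and 208 CPM, and the medians at 9.76, 0, 0.102 and 0.0320 CPM. In OHCs fewer mutant cells were positive, and in IHCs 11 cells of each genotype were, with medians near 0 in both. The log2 ratio was -1.36 (-1.40 to -1.33) in OHCs and 1.68 (1.63 to 1.73) in IHCs. In OHCs it was -1.18 in Y-positive and -0.22 in Xist-positive cells, and in IHCs 0.64 and 1.55, so the OHC difference was small among Xist-positive cells.

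Thioredoxin itself was lower in mutant OHCs. Txn1 had a lowest, median and highest cell of 201, 450.3 and 744 CPM in control OHCs and 80.5, 217 and 747 in mutant OHCs, and of 149, 270.0 and 499.9 in control IHCs and 84.8, 229.7 and 409 in mutant IHCs. Control OHCs again were the high group, and the other 3 medians lay closer together. The log2 ratios were -0.98 (-0.99 to -0.97) in OHCs (-0.86 and -0.96 within the sexes), -0.34 (-0.36 to -0.33) in IHCs (0.03 and -0.67) and 0.68 (0.67 to 0.69) between control OHCs and control IHCs. Thioredoxin reductase 1 (Txnrd1), its cytosolic reductase, was higher in IHCs than in OHCs and in mutants than in controls, at 170.0, 224, 283 and 341 CPM, with genotype ratios of 0.40 (0.38 to 0.41) and 0.27 (0.26 to 0.28). In mitochondria, Txn2 stood at 235, 258, 223 and 209 CPM and its reductase Txnrd2 at 14.7, 12.2, 24.8 and 26.2 CPM. Their genotype ratios were 0.14 and -0.27 in OHCs and -0.09 and 0.08 in IHCs. Txnip, which binds and inhibits thioredoxin, stood at 55.9, 37.7, 24.8 and 34.1 CPM, with -0.57 in OHCs and 0.46 in IHCs. Its OHC sign differed between Y-positive and Xist-positive cells (0.43 and -1.55).

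Txnl4a and Txndc5, which carry a thioredoxin fold but are not known as peroxide scavengers, were the ones above 2-fold at 10 CPM or more in mutant OHCs. Txnl4a, the mouse form of a core protein of the spliceosomal U5 particle, had a lowest, median and highest cell of 2.94, 47.6 and 144 CPM in control OHCs and 2.08, 113 and 348 in mutant OHCs, and of 0, 72.5 and 199 in control IHCs and 26.1, 129 and 281 in mutant IHCs. Mutant medians were higher in both cell types, and the log2 ratios were 1.15 (1.13 to 1.18) in OHCs (1.30 and 0.79 within the sexes) and 0.75 (0.73 to 0.77) in IHCs (0.99 and 0.78). Txndc5, a disulfide isomerase of the endoplasmic reticulum, was positive in 12 of 43 control OHCs and 27 of 56 mutant OHCs, at 14.9 and 36.5 CPM (log2 ratio 1.29, interval 1.25 to 1.33), and its ratio was 1.93 in Y-positive and 0.27 in Xist-positive cells. Txndc15, a protein of primary cilia and the highest gene of the Txndc name, stood at 762, 814, 1148 and 1051 CPM, with genotype ratios of 0.10 and -0.13. Txndc16 stood at 62.5, 34.6, 31.2 and 35.1 CPM, with -0.86 and 0.17, and was 2.01-fold higher in control OHCs than in control IHCs, a ratio that fell short of 2-fold with TMM factors (0.99) and in Y-positive cells (0.71). Exons of Txndc5 overlap Bmp6 on the other strand (-2.77 in OHCs), those of Txndc16 overlap Gpr137c on the other strand (1.05 in OHCs), and those of Txnl4a overlap Gm16286 on the same strand (0.32 in OHCs and 0.50 in IHCs). Of the 12 genes 10 passed the filter, with 7 above and 3 below 0 in OHCs and 5 and 5 in IHCs.

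The regulator Nfe2l2, Nqo1 and the heme oxygenases stayed within 2-fold between genotypes where more than a few cells were positive. Nfe2l2 itself stood at 64.7, 49.0, 75.7 and 64.8 CPM, with log2 ratios of -0.40 (-0.42 to -0.38) in OHCs and -0.22 (-0.25 to -0.20) in IHCs. The OHC ratio was 0.22 in Y-positive and 0.12 in Xist-positive cells, so its sign did not hold within the sexes. Nqo1, a quinone reductase and a standard readout of Nrf2, was positive in 3 of 43, 1 of 56, 2 of 38 and 1 of 26 cells of control OHCs, mutant OHCs, control IHCs and mutant IHCs. Hmox1, the inducible heme oxygenase, was positive in 1 of 43, 4 of 56, 4 of 38 and 4 of 26 of the same groups. Both were thus near the limit of detection, and their ratios rest on single cells. The constitutive Hmox2 stood at 107, 108, 71.4 and 83.3 CPM, with ratios of 0.02 in OHCs (-0.39 and 0.96 within the sexes) and 0.22 in IHCs (0.09 and 0.67), and 41.9% of its 50-base stretches are shared, mostly with Cdip1 on the other strand.

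Genes that supply or extend these systems were counted in 9 lists with 101 genes. In mutant OHCs 13 of the 77 past the filter were higher (16.9%) and 11 lower (14.3%) by 2-fold, against 18.4% and 13.1% of all genes, and in mutant IHCs 9 (11.2%) and 8 (10%) of 80, against 18.8% and 11.7%. These shares were near or below those of all genes, and the genes named here are the ones past 2-fold, not a theme of the lists. Among 17 other Nrf2 targets, 6 lay above and 8 below 0 in mutant OHCs (median -0.28) and 5 and 8 in mutant IHCs (median -0.14). Slc7a11, which imports the cystine from which glutathione is made, was positive in 15 of 43 control OHCs and 0 of 56 mutant OHCs, at 21.7 and 0.174 CPM (log2 ratio -6.97, interval -7.24 to -6.71), and in 3 of 38 control IHCs and 0 of 26 mutant IHCs. G6pdx, the entry enzyme of the pentose phosphate pathway that makes NADPH, was at 124, 56.7, 61.9 and 49.6 CPM, with ratios of -1.12 in OHCs (-0.93 and -1.11 within the sexes) and -0.32 in IHCs. Blvrb, biliverdin reductase B, was at 11.5 and 4.98 CPM in OHCs (-1.21, with -0.26 and -2.22 within the sexes). The exporter Abcc1 was at 16.5 and 34.3 CPM in IHCs (1.05, with 1.65 and 0.12).

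Of 9 NADPH-supplying genes, 3 lay above and 3 below 0 in mutant OHCs and 5 and 2 in mutant IHCs. Me3, the mitochondrial malic enzyme that uses NADP, was positive in 24 of 43 control OHCs and in 0 of 56 mutant OHCs, whose highest cell was at 0.142 CPM, and in 6 of 38 control IHCs and 1 of 26 mutant IHCs. Its OHC ratio was -12.73 (-14.60 to -11.37), on 4 counts in the mutants. In IHCs the highest cell held 56.3% of the Me3 counts of controls and 97.2% of those of mutants. The IHC ratio was -1.23 in Y-positive and -10.64 in Xist-positive cells. Idh2, the mitochondrial isocitrate dehydrogenase, was at 12.8 and 6.32 CPM (-1.02), with -0.21 in Y-positive and -1.93 in Xist-positive cells. Mthfd2, of mitochondrial folate metabolism, went the other way, at 31.7, 135, 56.6 and 122 CPM, with ratios of 2.08 (2.06 to 2.11) in OHCs and 1.11 (1.09 to 1.13) in IHCs.

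Of the membrane transferases and glutaredoxins, Mgst3, Glrx and Glrx3 were higher by 2-fold or more in mutant OHCs, and Mgst1 (-11.59, on 1 count in mutants), Mgst2 (-11.54, likewise) and Ptges were lower. Glrx3, a glutaredoxin that handles iron-sulfur clusters, had a lowest, median and highest cell of 0, 84.9 and 1245 CPM in control OHCs and 0.206, 737 and 1498 in mutant OHCs, and of 0, 111 and 249 in control IHCs and 42.7, 317 and 696 in mutant IHCs. The log2 ratios were 1.90 (1.89 to 1.91) in OHCs (2.51 and 0.82 within the sexes) and 1.57 (1.56 to 1.59) in IHCs (1.55 and 1.69). Msra, a methionine sulfoxide reductase, was positive in 6 of 43 control OHCs and 31 of 56 mutant OHCs, and in 10 of 38 control IHCs and 15 of 26 mutant IHCs, with ratios of 2.67 (2.61 to 2.72) and 1.80 (1.75 to 1.86) that were above 1 in both sexes of each cell type. Its mitochondrial counterpart Msrb2 was at 49.7, 122, 42.1 and 65.7 CPM (1.30 and 0.64). The glutaredoxin Glrx was at 17.0, 34.5, 9.77 and 12.4 CPM (1.02 and 0.35) and the membrane transferase Mgst3 at 356, 758, 784 and 1176 CPM (1.09 and 0.59), while the prostaglandin synthase Ptges of the same list was at 72.9, 27.4, 28.8 and 25.8 CPM (-1.41 and -0.16). Of the 8 genes of that list 4 lay above and 4 below 0 in mutant OHCs, and of 7 methionine sulfoxide reductases and sestrins 5 lay above and 1 below.

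In the list of glutathione supply and turnover, 5 genes lay above and 7 below 0 in mutant OHCs and 7 and 5 in mutant IHCs. Cbs, which starts the route from homocysteine to cysteine, was at 3.59 and 24.9 CPM in OHCs (log2 ratio 2.80, interval 2.72 to 2.87), and Chac2, which breaks glutathione down, at 9.43 and 40.5 CPM (log2 ratio 2.10, interval 2.05 to 2.15). Of 10 Nrf2 regulators 4 lay above and 5 below 0 in mutant OHCs and 4 and 6 in mutant IHCs. Bach2, a repressor related to Bach1, was at 3.49, 14.9, 2.87 and 0.162 CPM. Cul3, the ligase partner through which Keap1 marks Nrf2 for destruction, was at 123, 100.3, 95.5 and 44.4 CPM. Its IHC ratio was -1.11 (-1.13 to -1.08), with -0.41 in Y-positive and -1.58 in Xist-positive cells. Mafg, a small Maf partner of Nrf2, was at 45.5 and 22.4 CPM in IHCs (-1.02, with -0.46 and -1.45 within the sexes). The sestrin Sesn3 was at 29.8 and 13.5 CPM in IHCs (-1.14, with -1.22 and -0.81). Among 11 other antioxidant proteins, 6 lay above and 4 below 0 in mutant IHCs. There Aifm2, a ferroptosis suppressor, was positive in 1 of 38 controls and 5 of 26 mutants (log2 ratio 4.30, interval 4.12 to 4.50), the paraoxonase Pon2 in 2 of 38 and 6 of 26 (log2 ratio 3.02, interval 2.91 to 3.14), and the metallothionein Mt1 in 8 of 38 and 13 of 26 (log2 ratio 2.18, interval 2.11 to 2.25).

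**Figure D5:**
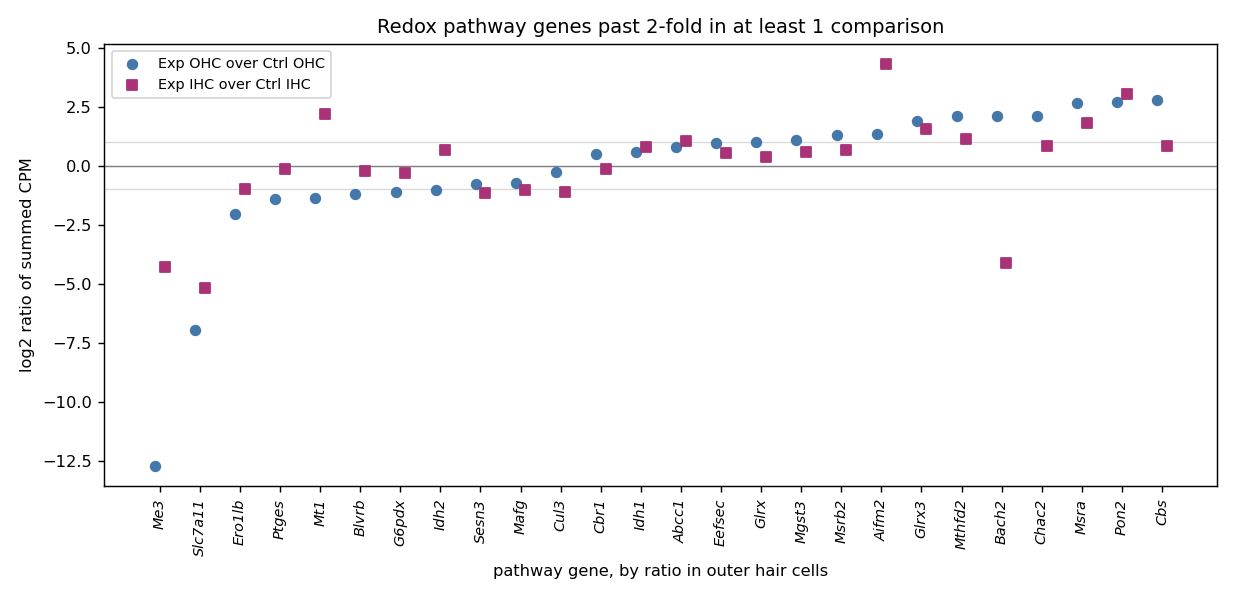
Log2 ratio of summed CPM, mutant over control, in OHCs (circles) and IHCs (squares) for 26 of the 101 pathway genes. Grey lines lie at 0 and 2-fold. These 26 passed 2-fold with 10 CPM or more in the higher group in at least 1 comparison. At the 1 CPM filter the lists had 16.9% higher and 14.3% lower in mutant OHCs, against 18.4% and 13.1% of all genes. In mutant IHCs they had 11.2% and 10%, against 18.8% and 11.7%. Me3 (-12.73 and -4.29) and Slc7a11 (-6.97 and -5.19) lie lowest in both cell types, and Glrx3 (1.90 and 1.57) and Msra (2.67 and 1.80) lie above 0 in both. The IHC ratios of Me3 and Slc7a11 rest on few cells, and that of Slc7a11 was 0.88 in Xist-positive cells.

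Between the control cell types 8 of 82 pathway genes were higher (9.76%) and 12 lower (14.6%) in OHCs by 2-fold, against 15.3% and 13.4% of all genes. Slc7a11 was 13.6-fold higher in control OHCs than in control IHCs, Me3 3.89-fold higher, Ptges 2.54-fold higher and Idh2 2.03-fold higher. In the opposite direction, the carbonyl reductase Cbr1 was 3.08-fold lower, the selenocysteine elongation factor Eefsec 3.74-fold lower, the oxidase Ero1lb 2.46-fold lower and the cytosolic Idh1 2.03-fold lower in OHCs, and Mgst3 had a log2 ratio of -1.14. The Ero1lb log2 ratio was -1.90 in Y-positive and 0.30 in Xist-positive cells, so its sign did not hold within the sexes. In mutant OHCs 7 of the other antioxidant proteins lay above and 2 below 0, and of the selenoprotein synthesis genes 3 and 7, and in mutant IHCs the latter split 5 and 5. The oxidant sources past the filter split 1 and 2 in OHCs and 1 and 4 in IHCs, the methionine sulfoxide reductases and sestrins 4 and 3 in IHCs, and the membrane transferases and glutaredoxins 3 and 3 in IHCs. Of the 14 oxidant sources only 4 passed the filter between the control types, and of the 10 genes of selenoprotein synthesis all 10 did, with 5 on each side of 0.

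Within a group, rank correlations between the genes from cell to cell were spread around 0. Among the 24 at 50 CPM or more in every group, the median rank correlation over 276 pairs was 0.02 in control OHCs, 0.02 in mutant OHCs, 0.02 in control IHCs and 0.00 in mutant IHCs. The pair with the highest value in its lowest group was Gpx1 with Gpx4, at 0.16 to 0.20. These are descriptions over cells of a group, which share their depth and composition.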

How the data were processed

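Single hair cells were lysed and their RNA was made into full-length cDNA libraries with a Smart-Seq kit, per the labels' protocols. The mouse build mm10 and the tools featureCounts 2.0.1, HISAT2 2.2.1 and SAMtools are listed in the submitters' processing notes, without their roles. The authors deposited raw read counts per gene and cell, not normalized. Strand use and the treatment of reads that fit several places are not given in the sources used here, and antisense or near-identical genes may share reads.

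Gene names, classes and exon lengths came from GENCODE M21 (GRCm38), which matched 55034 of 55291 gene IDs (99.5%). Levels are the pooled counts of a group's cells, scaled to CPM, with exact Poisson 95% intervals, and log2 ratios carry Clopper-Pearson intervals. A floor of 3 counts per group replaced 0. Ratios were counted for genes that averaged at least 1 CPM over the compared groups, and a gene was called past 2-fold. With each group 1 sample, no test was made. The calculation of ratios and intervals was checked on simulated Poisson counts with known changes. These lack the spread between cells, so the check covers the calculation only. The share of transcript stretches found in other genes used 50 bases.

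The members and all gene lists were chosen with earlier results of these data known. Named are the genes past 2-fold with 10 CPM or more in the higher group, up to 10 each way in a comparison, the 10 highest per kb in control OHCs, and a list of core enzymes. Other genes with values were chosen after these were seen. Marker lists covered supporting cells, glia, neurons, mesenchyme, erythroid, immune and endothelial cells, and hair cells with their outer and inner types.

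Alternatives were TMM factors (edgeR 4.0.16) and DESeq2 1.42.0 size factors in place of totals, the mean or median of cells in place of sums, no filter or 10 CPM, no top cell, no cells at 100 CPM of other cells' markers, and subsets by Y-linked genes, Xist and Gm15772, a gene whose level splits the cells at 40 CPM. The 100 CPM limit was on the sum of the supporting cell, glial, mesenchymal and endothelial lists, without the neuronal, erythroid and immune ones. Leaving out cells at 50 CPM of supporting cell markers, or the cell whose markers go against its label, was chosen after seeing the data. Python 3.11.15, numpy 2.4.6, scipy 1.17.1, pandas 2.3.3, matplotlib 3.10.9 and R 4.3.3 were used.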

Additional observations from a re-analysis of the deposited data

Results flagged for a closer look

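For 2 of the 38 genes of the set named by the rules above, the genotype log2 ratio differed in sign and by over 2 between OHCs and IHCs. Neither difference was tested. Outside those 38, Gsto1 also did so past the filter, at -1.64 in OHCs and 0.43 in IHCs. Gsta4 had -3.29 in OHCs and 0.40 in IHCs, a difference of -3.68, and was positive in 8 of 56 mutant OHCs but 21 of 26 mutant IHCs. Srxn1 had -1.36 in OHCs and 1.68 in IHCs, a difference of -3.04, and was positive in 12 of 56 mutant OHCs and 11 of 26 mutant IHCs.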

How the results depend on the processing

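No paired analysis was possible because the results come from no test and the replicate numbers only name cells. No cause was tested for the changes given here. Under TMM and DESeq2 factors no count moved by over 1.5 times and no median beyond its spread, nor did they without the cells rich in supporting cell markers or the cell whose markers go against its label. With the mean of cells, 5 genes were higher in control OHCs than control IHCs. With the median of cells, 1 was higher and 5 lower in mutant IHCs, where Srxn1 turned to -1.67. Without the filter 4 were lower in mutant IHCs. At 10 CPM, 2 were higher in mutant OHCs, 3 higher and 0 lower in mutant IHCs, and 1 lower in control OHCs than control IHCs, and the OHC ratio exceeded the IHC ratio 2-fold in 0 genes and fell short in 5. With top cells dropped it fell short in 4, and the difference of Gstm6 turned to 4.31.

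Keeping cells under 100 CPM of summed supporting cell, glial, mesenchymal and endothelial markers left 16, 7 and 12 cells and 1 mutant IHC. The medians became -0.27 in IHCs and 0.38 for the difference, 22 genes were lower in mutant IHCs, 8 lower in control OHCs than control IHCs, and 18 had a higher ratio in OHCs than IHCs. Signs turned for Hmox1 in OHCs (-6.13), Prdx4 (-5.59) and Srxn1 (-8.23) in IHCs, and the differences of Gsta4 (7.79), Srxn1 (7.27) and Txndc16 (3.48).

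In Y-positive cells 6 genes had a higher ratio in OHCs than IHCs, and the differences of Gstm6 (2.12) and Nqo1 (5.09) turned. In Xist-positive cells the OHC median was 0.15, with 8 higher in mutant OHCs, 7 lower in mutant IHCs and 13 with a lower ratio in OHCs than IHCs. There control OHCs against control IHCs turned for Gpx8 (0.77) and Srxn1 (-0.19), and the difference for Hmox1 (-1.77). In cells low in Gm15772, 13 were lower in mutant OHCs and 6 had a higher ratio in OHCs, and the differences of Gstm6 (2.08) and Nqo1 (4.76) turned. In cells high in it, the OHC median was 0.15, 7 were lower in mutant IHCs and 3 lower in control OHCs than control IHCs, where Gpx8 (0.52) and Hmox1 (5.09) turned, as did the difference of Hmox1 (-6.18).

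Of the named genes past 2-fold, 10 of 11 kept their sign in OHCs, 3 of 5 in IHCs, 7 of 10 between control types and 2 of 8 for the difference, under every alternative that gave a value. Of 12 such alternatives, at least 11, 7, 9 and 7 gave one for each gene.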
